A study of Mus musculus with 8 samples.

Results

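The genes described here are Pax6, Isl1 and Mafa, transcription factors of differentiating islet cells. They were taken as every probe of a one-colour Agilent mouse array, control spots left out, whose gene name in the scanner files was one of the 3 symbols. These were 3 of the 19754 genes named on the array, and 5 probes carried their names. RNA came from pancreatic epithelia that were microdissected at e15.5 (embryonic days after mating), when the main wave of endocrine and acinar differentiation is under way. The Sox9 mutant group held 4 pools from embryos of genotype Sox9 fl/fl; Rosa26-CreER. The wild-type group held 4 pools from littermates with Rosa26-CreER and no floxed Sox9 allele. Dams of both groups received tamoxifen, 6 mg per 40 g, at e12.5, and both groups were on mixed FVB/N, C57Bl/6J and CD1 backgrounds. Rosa26 drives the recombinase in nearly all cell types, so deletion was not restricted to 1 compartment of the pancreas. Each array measured a pool of 4 pancreata, and every spread below is a spread between such pools.

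Endocrine cells of the pancreas arise from progenitors in the epithelium that switch on Neurog3 for a short time, leave the cell cycle and then express a cascade of islet transcription factors. PAX6, a protein with a paired domain and a homeodomain, and ISL1, a LIM-homeodomain protein, act after NEUROG3 in hormone-producing cells, where they bind hormone gene enhancers and are needed for normal numbers of islet cells. MAFA, a large Maf protein of the basic leucine zipper class, acts later still, in beta cells, where it drives insulin transcription and the genes of glucose sensing. SOX9, the protein removed in the mutant, marks the progenitors from which these cells come.

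Log2 levels are log2 processed signals relative to the 75th percentile of the same array, so a level of 0 lies at that percentile. The array of mutant replicate 2 stood apart, with a median processed signal of 756 scanner units where the other 7 had 219 to 272. The scanner software called 85.9% of its probes well above background, against 69.0% to 73.4% elsewhere. Its median correlation with the arrays of its own genotype was 0.923, against 0.994 to 0.996 for the others. The results for Pax6, Isl1 and Mafa are therefore given with and without it. All wild-type arrays came from 1 slide and scan and all mutant arrays from another, so slide and genotype cannot be told apart. The brightest Sox9 probe was lower in the mutant, at 0.50 ± 0.08 against 1.83 ± 0.07 (SD, n = 4 each), a log2 difference of -1.33 (SE 0.07, adjusted p of 0.000805, limma). The sources used here do not say which part of Sox9 is deleted, so whether this probe lies in it is not known. Across all 19384 features tested, 5.53% passed an adjusted p of 0.05. Of them 663 (3.42%) were lower and 409 (2.11%) were higher in the mutant. With mutant replicate 2 left out, 17.3% passed, 10.6% lower and 6.77% higher.

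Pax6 and Isl1 transcripts were lower in the Sox9 mutant, and Mafa was lower on 3 of the 4 mutant arrays and far higher on the other. Pax6 stood at 41.4% of its wild-type level and Isl1 at 54.2%. Over the 7 arrays without mutant replicate 2 these shares were 48.1% for Pax6, 57.3% for Isl1 and 47.5% for Mafa. In a bulk sample, fewer cells that express a gene and less RNA of it per cell cannot be told apart.

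**Figure D1:**
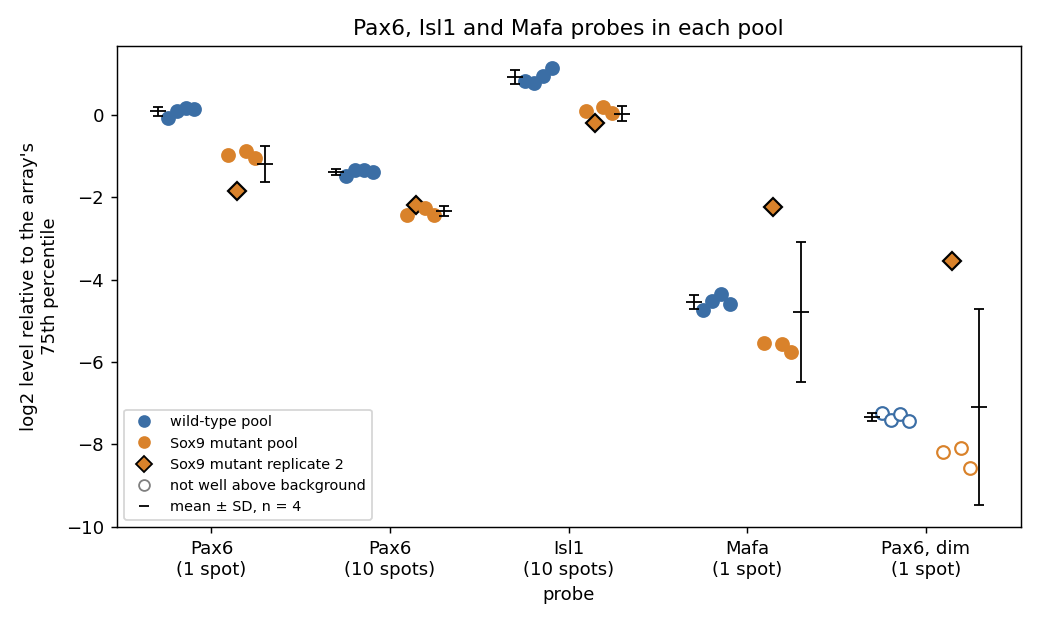
Log2 level, relative to the 75th percentile of each array, of the 5 probes of Pax6, Isl1 and Mafa on the 4 wild-type and 4 Sox9 mutant arrays, with the mean ± SD of the 4 pools beside them; a diamond marks mutant replicate 2 and open circles are not well above background. Mutant points lie below all wild-type points for Isl1 and for both brighter Pax6 probes, while for Mafa and the dim Pax6 probe mutant replicate 2 lies above every other array.

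Pax6 was measured by 3 probes on the forward strand of chromosome 2 (mm8 assembly, as in the scanner files), each annotated there to Pax6 (exon and intron positions in that assembly were not used here). The brightest, at 105497959 to 105498018, had log2 levels of -0.07, 0.09, 0.17 and 0.14 in wild-type replicates 1 to 4 and of -0.99, -1.85, -0.89 and -1.04 in mutant replicates 1 to 4. All 4 mutant values lay below all 4 wild-type values, and mutant replicate 2 was the lowest. The means were 0.08 ± 0.10 in the wild type and -1.19 ± 0.44 in the mutant (SD, n = 4 each). The log2 difference was -1.27 (SE 0.21, adjusted p of 0.0190, limma), a level 2.42-fold lower. Pax6 was thus among the 3.42% of features that were called lower. Without mutant replicate 2 the difference was smaller and more precise, at -1.05 (SE 0.08, adjusted p of 0.000790, limma), a level 2.08-fold lower. The call was lost when any 1 of the wild-type arrays was left out, with adjusted p-values (limma) of 0.0573, 0.0637, 0.0675 and 0.0560 without replicates 1, 2, 3 and 4, while the difference stayed between -1.32 and -1.25. The call was also lost with median scaling (-1.67, adjusted p of 0.242), quantile normalization (-1.60, adjusted p of 0.143) and normexp background correction with quantile normalization (-1.36, adjusted p of 0.0858).

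The probe of Pax6 that was printed in 10 spots spans 105496273 to 105497145 on the same chromosome. Its log2 levels were -1.48, -1.35, -1.33 and -1.37 in the wild-type arrays and -2.43, -2.19, -2.25 and -2.43 in the mutant arrays. Mutant replicate 2 was here the highest of the mutant arrays and still below every wild-type array. Fitted as its own feature, the probe fell by 0.94 on the log2 scale (SE 0.08, adjusted p of 0.00371, limma), from -1.38 ± 0.07 to -2.33 ± 0.12 (SD, n = 4 each). In this fit of 29462 probes 3.84% were called, and 2.23% were called lower. The call held in all 8 fits with 1 array left out, with adjusted p-values (limma) between 0.000847 and 0.0222, and was lost with normexp background correction and quantile normalization (-1.05, adjusted p of 0.0784, limma). The 10 spots are technical repeats within an array. Their coefficient of variation was 1.5% to 6.3% on 7 arrays and 10.6% on mutant replicate 2, with 8 to 10 spots used after outlier spots were left out.

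The brighter Pax6 probe exceeded the 10-spot probe by 1.41 to 1.52 on the log2 scale in the wild-type arrays and by 1.37 to 1.45 in mutant replicates 1, 3 and 4. In mutant replicate 2 the excess was 0.34. The 2 probes therefore kept a nearly fixed distance on 7 arrays and not on that one. The larger of the 2 Pax6 differences, -1.27 against -0.94, came from the probe on which mutant replicate 2 was lowest, and with that array left out they were -1.05 and -0.99.

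The remaining Pax6 probe, at 105484780 to 105485631, was not well above background on any wild-type array and was so on 1 mutant array, replicate 2. It missed the filter and was not tested. Its log2 levels were -7.34 ± 0.09 (SD, n = 4) in the wild type, -8.18, -8.09 and -8.57 in mutant replicates 1, 3 and 4, and -3.54 in mutant replicate 2. The levels of the other 7 arrays are bounds set by background.

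**Figure D2:**
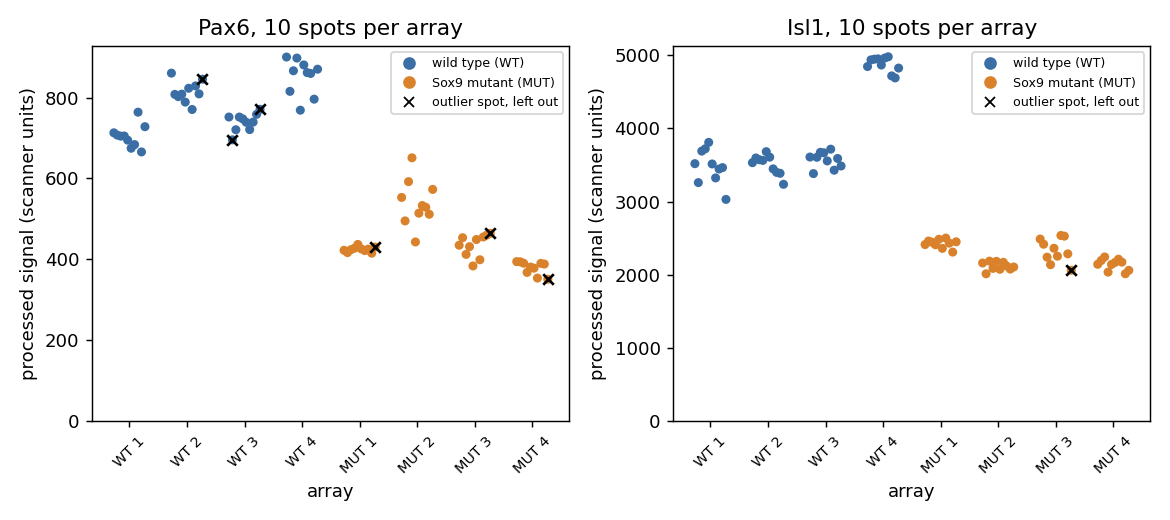
Processed signal, in scanner units on a linear axis from 0, of the single spots (crosses mark outlier spots left out) of the 10-spot Pax6 probe and the 10-spot Isl1 probe on each of the 8 arrays. Spots of an array cluster tightly, with coefficients of variation from 1.5% to 10.6% for Pax6 and from 2.11% to 6.72% for Isl1.

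Isl1 was measured by 1 probe printed in 10 spots, on the reverse strand of chromosome 13 at 117419248 to 117419307 (mm8), annotated to Isl1. Its log2 levels were 0.82, 0.76, 0.94 and 1.14 in wild-type replicates 1 to 4 and 0.09, -0.21, 0.20 and 0.05 in mutant replicates 1 to 4. No mutant array reached the lowest wild-type array, and mutant replicate 2 was the lowest of all. The means were 0.92 ± 0.17 and 0.03 ± 0.17 (SD, n = 4 each). Isl1 fell by 0.88 on the log2 scale (SE 0.12, adjusted p of 0.0100, limma), a level 1.85-fold lower. With mutant replicate 2 left out it was -0.80 (SE 0.10, adjusted p of 0.00396, limma). Isl1 was called in all 8 fits with 1 array left out, with differences between -0.94 and -0.80 and adjusted p-values (limma) up to 0.0403. Scaling arrays to their medians ended the call, at -1.28 with an adjusted p of 0.311 (limma). Separation of the 8 values was not rare on these arrays: all 4 mutant values lay below all 4 wild-type values for 15.1% of features, Pax6 and Isl1 among them.

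ISL1 is also made by sympathetic and sensory neurons and by mesenchyme near the early dorsal pancreas, so genes of other cell types were read beside it. Of 14 neuronal genes tested, 1 was called lower and none higher, with a median log2 difference of -0.50 against -0.00 over all features. It was Elavl4, at -1.05 with an adjusted p of 0.0492 (limma), which was called in 2 of the 8 fits with 1 array left out, those that lacked mutant replicate 2 (-0.90, 0.0306) or mutant replicate 3 (-1.26, 0.0246). The mean level of the 14 genes was -1.53 to -0.47 in the wild-type arrays and -2.03 to -0.95 in the mutant arrays, and all 14 were well above background on all 8 arrays. Of 7 Schwann cell genes tested, 3 were called lower, among them Sox10 at -1.05 (adjusted p of 0.00597, limma) and S100b at -1.63 (adjusted p of 0.00771, limma). Of 14 mesenchymal genes, 2 were called higher, Nkx3-2 at 0.57 (adjusted p of 0.0138, limma) and Barx1 at 0.27 (adjusted p of 0.0381, limma). Nkx3-2 lost its call without wild-type replicate 3, where its adjusted p was 0.0533 (limma), and its difference was 0.17 with median scaling, 0.32 with quantile normalization and 0.31 with normexp background correction. Barx1 kept its call in 1 of the 8 left-out fits, that without mutant replicate 2 (0.26, adjusted p of 0.0192, limma), and stood at -0.13 when arrays were scaled to their medians, which moved the median of all features to -0.40. With mutant replicate 2 left out, 1 neuronal and 4 Schwann cell genes were called lower and 3 mesenchymal genes higher. Among all features, 10.6% were called lower and 6.77% higher in that fit, against 3.42% and 2.11% over all 8 arrays. The neuronal median was -0.55 without mutant replicate 2. Over all 8 arrays, 4 neuronal genes were lower and none higher at an unadjusted p under 0.05 (limma). The mesenchymal list's mean level was 1.63 to 1.83 in the wild type, 1.80 to 1.87 in mutant replicates 1, 3 and 4 and 2.06 in mutant replicate 2. The median log2 difference of that list was 0.07, with and without mutant replicate 2. None of 8 epithelial genes was called by limma at an adjusted p of 0.05 (3 had an unadjusted p under 0.05, and 3 were called without mutant replicate 2), and their median difference was 0.01, or -0.38 with median scaling. The part of these cell types in the lower Isl1 and Pax6 levels was not tested.

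Mafa was measured by 1 probe with 1 spot on the reverse strand of chromosome 15 at 75574287 to 75574346 (mm8), annotated to Mafa. It was dim, with a wild-type level at percentile 16 of the features tested, against percentile 58.3 for the brightest Pax6 probe and 69 for Isl1. Its processed signals were 73.4, 90.0, 91.7 and 92.2 scanner units in wild-type replicates 1 to 4 and 49.2, 522, 43.2 and 38.1 in mutant replicates 1 to 4. Mutant replicates 1, 3 and 4 lay below every wild-type array, and mutant replicate 2 lay far above them all. The probe was called well above background on all 8 arrays.

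On the log2 scale Mafa stood at -4.74, -4.52, -4.34 and -4.58 in the wild-type arrays and at -5.54, -2.23, -5.57 and -5.76 in the mutant arrays. The means were -4.55 ± 0.17 and -4.77 ± 1.70 (SD, n = 4 each), a difference of -0.23 (SE 0.77, adjusted p of 0.861, limma). Mafa therefore did not pass the test, and the SE leaves room for a fall as large as that of Pax6. Without mutant replicate 2 the mutant mean was -5.62 ± 0.12 (SD, n = 3) and the difference -1.07 (SE 0.11, adjusted p of 0.00184, limma), a level 2.11-fold lower. In that fit 10.6% of all features were called lower. When any 1 of mutant replicates 1, 3 or 4 was left out instead, the difference lay between 0.03 and 0.10 (SE 0.82 to 0.85). Mutant replicate 2 thus decided the call, and the sign was unsettled among the fits that held it.

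Mutant replicate 2 was read for each gene beside other features of like brightness, those within 0.5 log2 of the gene's wild-type level. On this array dim features stood above the other mutant arrays and bright ones below them. The 1589 features as dim as Mafa had a median difference of 1.59 between this array and the mean of the other mutant arrays, with quartiles of 0.53 and 2.47. Mafa differed by 3.39, above 92.8% of them. The 2447 features as bright as Pax6 had a median of -0.08 and quartiles of -0.23 and 0.07, and Pax6 at -0.88 was lower than nearly all of them, with 0.45% below it. Isl1 at -0.32 lay closer to its 2499 neighbours in brightness, whose median was -0.17, with 18.5% of them below it. What set this array apart was not tested.

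**Figure D3:**
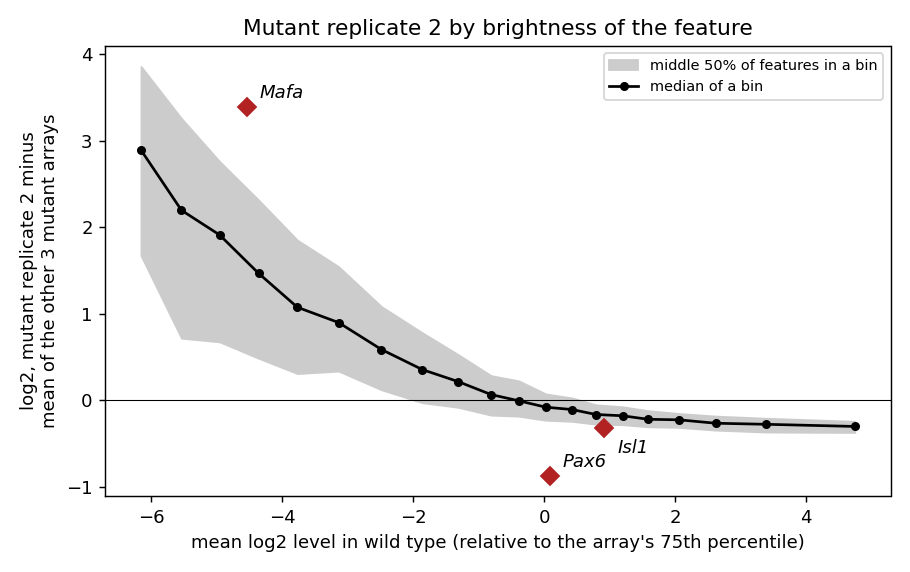
Difference in log2 level between mutant replicate 2 and the mean of the other 3 mutant arrays (vertical axis) against the wild-type log2 level of the feature (horizontal axis), as medians of 20 bins of features with their quartiles, and the 3 genes as single points. The bin medians run from 2.89 in the dimmest bin to -0.31 in the brightest, with Mafa above and Pax6 below the features of like brightness.

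The 3 genes were then set against each other on the same array, which removes a single scaling factor per array. A shift that varies with brightness, as on mutant replicate 2, is not removed. Pax6 minus Isl1 ranged from -1.0 to -0.67 in the wild-type arrays and from -1.64 to -1.07 in the mutant arrays, without overlap. The mean shifted by -0.39, from -0.83 ± 0.14 to -1.22 ± 0.28 (SD, n = 4 each), with a two-sided exact permutation p of 0.0286, the smallest that 4 against 4 arrays can give, and 0.0857 after adjustment over the 3 pairs. With mutant replicate 2 left out it shifted by -0.25. A larger fall of Pax6 than of Isl1 thus did not pass after adjustment, and a single pair could not have passed at this number of arrays. Pax6 was taken here at its brightest probe. The 10-spot Pax6 probe differed between genotypes by -0.94, near the -0.88 of Isl1, and was not compared with Isl1 within arrays. Pax6 minus Mafa shifted by -1.05 (exact permutation p of 0.629, adjusted 0.943) and by 0.02 without mutant replicate 2, where the 2 genes had fallen by almost the same amount. Isl1 minus Mafa shifted by -0.66 (exact permutation p of 0.971, adjusted 0.971) and by 0.27 without that array. Under normexp background correction with quantile normalization both differences to Mafa passed, at -1.02 and -0.49 (exact permutation, adjusted p of 0.0429 each). That correction adds an offset of 50 scanner units. Outside mutant replicate 2 the processed signals of Mafa were only 38.1 to 92.2 units. Mafa itself differed by -0.34 under this setting, and the part of the offset in these shifts was not tested.

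The promoters of Pax6 and Isl1, which fell together, are shown because SOX proteins and the basic helix-loop-helix factors of the endocrine cascade bind short motifs that can be read in them. They are the 250 bases before each gene start listed by RefSeq for GRCm38.p6, a different assembly from that of the probes. 3 entries matched, 2 of Pax6 and 1 of Isl1, and Mafa was not matched. Capitals mark a match to the SOX core ACAAT, searched on both strands (ACAAT or ATTGT).
Pax6 promoter 1, chr2:105668646-105668895, forward strand: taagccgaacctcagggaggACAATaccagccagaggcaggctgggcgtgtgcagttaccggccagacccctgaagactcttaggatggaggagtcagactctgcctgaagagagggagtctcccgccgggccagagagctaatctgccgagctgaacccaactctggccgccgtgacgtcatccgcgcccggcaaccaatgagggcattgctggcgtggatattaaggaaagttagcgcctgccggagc
Pax6 promoter 2, chr2:105682213-105682462, forward strand: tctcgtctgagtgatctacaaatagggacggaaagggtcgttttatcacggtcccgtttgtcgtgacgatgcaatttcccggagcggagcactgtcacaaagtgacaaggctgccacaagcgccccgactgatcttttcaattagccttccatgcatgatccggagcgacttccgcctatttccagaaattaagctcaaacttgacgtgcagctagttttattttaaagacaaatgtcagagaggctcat
Isl1 promoter, chr13:116309689-116309938, reverse strand: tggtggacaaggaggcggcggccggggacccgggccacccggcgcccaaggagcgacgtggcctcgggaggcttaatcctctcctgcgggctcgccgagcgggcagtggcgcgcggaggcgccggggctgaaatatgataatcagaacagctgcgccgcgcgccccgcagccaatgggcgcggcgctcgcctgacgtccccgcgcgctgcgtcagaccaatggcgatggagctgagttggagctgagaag

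The first Pax6 promoter held 1 SOX core match, 230 bases before the start, and the other promoters held none. The same core occurs in 27.7% of the 32851 mouse promoters of this length, so a match in 1 of 3 is near the background. The E-box CAGATG, searched on both strands (CAGATG or CATCTG), was in none of the 3 windows and in 14.4% of all promoters. The Isl1 promoter was rich in G and C at 71.2%, against a median of 52.4% over all promoters, and the Pax6 promoters held 60.8% and 47.6%. No array value was measured at these sequences.

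Among 29 islet transcription factors that were measured above background, Pax6 had the sixth largest fall by log2 difference, Isl1 came at rank 11 and Mafa at rank 21. With mutant replicate 2 left out the ranks were 10, 12 and 7. Of the other 26 factors, 10 were called lower and none higher, with a median log2 difference of -0.45. In the fit without mutant replicate 2, 13 were lower and 1 was higher. Neurog3, Pax4 and Insm1, which act early in the cascade, had the 3 largest falls of the 29 in both fits. Neurog3, which starts the endocrine program, fell by 1.89 on the log2 scale (SE 0.15, adjusted p of 0.00215, limma). Pax4, a paired-domain factor of the beta and delta lineages, fell by 1.74 (adjusted p of 0.00441, limma), and Insm1, a zinc finger factor of early endocrine cells, fell by 1.67 (adjusted p of 0.00272, limma). Nkx2-2, which acts beside Pax6 and Isl1 in differentiating islet cells, fell by 0.86 (adjusted p of 0.00994, limma), close to Isl1. Without mutant replicate 2, Neurog3 differed by -1.93, Pax4 by -1.85, Insm1 by -1.53 and Nkx2-2 by -0.77.

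Isl1 fell less than Neurog3 on the same arrays. Neurog3 had the largest fall of the 29 factors in both fits. A positive mean shift of any other factor against it was therefore fixed by that choice, and the p-values here are not evidence for it. Isl1 minus Neurog3 rose from -0.13 ± 0.28 in the wild type to 0.88 ± 0.32 in the mutant (SD, n = 4 each), a shift of 1.01 with no overlap of the groups, a two-sided exact permutation p of 0.0286 and 0.0429 after adjustment over 3 comparisons that were chosen after the data were seen. The shift was 1.12 without mutant replicate 2. Pax6 minus Neurog3 shifted by 0.62 (exact permutation p of 0.114), with overlapping groups, and by 0.87 without that array. Mafa minus Neurog3 shifted by 1.66 (exact permutation p of 0.0286, adjusted 0.0429) and by 0.85 without it.

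**Figure D4:**
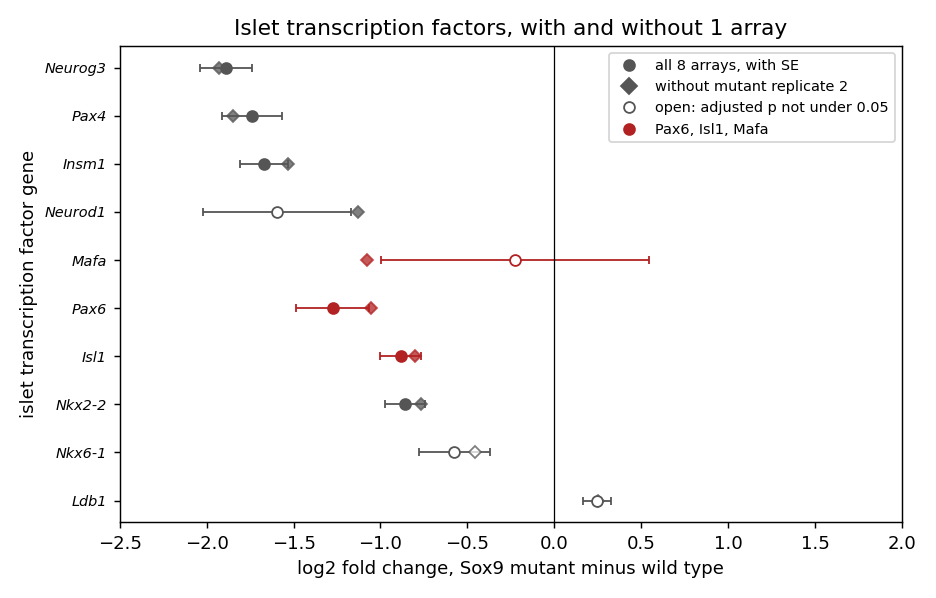
Log2 difference between Sox9 mutant and wild type for Pax6, Isl1, Mafa and the 7 other islet transcription factors named in the text, with SE bars for the fit of all 8 arrays (circles) and without mutant replicate 2 (diamonds); open symbols did not reach an adjusted p under 0.05. Pax6 and Isl1 lie left of 0 in both fits, while Mafa moves from -0.23 to -1.07 and from open to filled.

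The relatives of the 3 genes were read in their own families. In the Maf family, Maf, a large Maf factor like MAFA, differed by -0.02 (adjusted p of 0.934, limma).

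In the LIM-homeodomain family of Isl1, 8 other genes were tested, none was called lower (1 at an unadjusted p under 0.05, limma) and 1 was called higher, against 3 lower and 1 higher without mutant replicate 2. The fit without that array called 10.6% of all features lower and 6.77% higher, against 3.42% and 2.11% over all 8 arrays. The gene called higher over all 8 arrays was Lhx9, which rose from -4.23 ± 0.10 to -2.84 ± 0.36 (SD, n = 4 each), by 1.39 on the log2 scale with an adjusted p of 0.00825 (limma), and by 1.47 without mutant replicate 2. It was called in all 8 fits with 1 array left out, and its difference was 0.47 with quantile normalization and 0.45 with normexp background correction. Isl2, the closest relative of Isl1, differed by 0.33 (adjusted p of 0.220, limma). Among 6 genes of LIM-binding cofactors, Lmo1, a LIM-only protein, fell by 0.94 (adjusted p of 0.0117, limma) and differed by -1.56 with quantile normalization, and Ldb1, the cofactor that ISL1 binds in islet cells, differed by 0.25 (adjusted p of 0.114, limma). Of 8 other Pax genes, 2 were above background, and Pax4 was called lower while Pax2 was not (0.51, adjusted p of 0.604, limma).

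Hormone genes, several of which PAX6, ISL1 or MAFA are known to bind, were counted next. Of 8 tested, 2 were called lower and none higher, with a median log2 difference of -0.99. Without mutant replicate 2, 4 were called lower and none higher, and the median was -0.62. The shares of all features called lower in these 2 fits were 3.42% and 10.6%. Sst, somatostatin of delta cells, fell by 2.24 (adjusted p of 0.0392, limma) and by 1.74 without mutant replicate 2 (adjusted p of 0.00118, limma), the only fit with 1 array left out that kept the call. Ghrl, ghrelin of epsilon cells, fell by 1.35 (adjusted p of 0.0365, limma), and kept its call only when mutant replicate 2 (-1.12, adjusted p of 0.0117) or mutant replicate 3 (-1.59, adjusted p of 0.0188) was left out. The insulin genes Ins1 and Ins2 differed by -1.29 and -1.45 with adjusted p-values of 0.171 and 0.142 (limma), and by -0.75 and -0.89 with 0.0260 and 0.00660 without mutant replicate 2. Gcg, the glucagon gene, differed by 0.22 (adjusted p of 0.467, limma) and by 0.40 without that array (adjusted p of 0.0580, limma).

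Of 12 further genes known to be bound or driven by these factors, 2 were called lower, none higher, and the median difference was -0.21. Abcc8, the sulfonylurea receptor of the beta cell potassium channel, fell by 0.86 (adjusted p of 0.0112, limma) and was called in all 8 fits with 1 array left out. Without mutant replicate 2, 6 of the 12 were lower and 2 were higher, Slc2a2 (0.39, adjusted p of 0.0267, limma), the glucose transporter, and Ucn3 (0.53, adjusted p of 0.0311, limma), a peptide of mature beta cells. Among all features 10.6% were called lower and 6.77% higher in that fit, against 3.42% and 2.11% over all 8 arrays. G6pc2 and Slc30a8, which MAFA is known to drive in beta cells, differed by -1.09 and -0.78 in that fit, with adjusted p-values of 0.00226 and 0.00835 (limma), and by -1.56 and -1.72 over all 8 arrays, with 0.0845 and 0.250. Slc30a8 stood at -6.90 on mutant replicate 2 and at -3.36 to -3.01 on the other mutant arrays. Its probe was well above background on 3 of the 4 mutant arrays. Ucn3 was dim, with a wild-type level of -6.11, and its probe was well above background on 3 of the 4 wild-type arrays. Over all 8 arrays Ucn3 differed by 1.38 (adjusted p of 0.302, limma).

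Against general genes of endocrine secretory cells on the same array, none of the 3 factors passed the test after adjustment, but Pax6 and Isl1 did under normexp background correction with quantile normalization (exact permutation, adjusted p of 0.0429 each). The mean level of 12 such genes was 0.33 to 0.57 in the wild type and -0.28 to 0.21 in the mutant, and 2 of them, Chgb and Scg2, were called lower over all 8 arrays, against 7 without mutant replicate 2. For all features the shares called lower in these 2 fits were 3.42% and 10.6%. Chgb differed by -1.12 (adjusted p of 0.0391, limma) and kept its call only without that array (-0.87, adjusted p of 0.00100). Scg2 differed by -0.94 (adjusted p of 0.0324, limma) and kept it without mutant replicate 2 (-0.82, adjusted p of 0.0157) and mutant replicate 3 (-1.08, adjusted p of 0.0292). Pax6 minus this mean shifted from -0.38 ± 0.13 to -1.11 ± 0.50 (SD, n = 4 each), by -0.72 without overlap of the groups (exact permutation p of 0.0286, adjusted 0.0857), and by -0.49 without mutant replicate 2. Isl1 minus the mean shifted by -0.34 (exact permutation p of 0.0571, adjusted 0.0857) and by -0.24 without it. Mafa minus the mean shifted by 0.32 (exact permutation p of 1, adjusted 1) and by -0.51 without it.

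The genes nearest in pattern were found among 15810 named features by the root mean square distance of their 8 log2 levels, each taken relative to the wild-type mean. Nearest to Pax6 were Sytl4, a synaptotagmin-like protein of secretory granules, at a distance of 0.051, Cibar2 at 0.054 and 1700086L19Rik at 0.10. Nearest to Isl1 were Abcc8 at 0.078, Procr at 0.082 and Fzd9, a Wnt receptor, at 0.087. Sytl4 differed between genotypes by -1.23 on the log2 scale and Abcc8 by -0.86, beside -1.27 for Pax6 and -0.88 for Isl1. Those nearest to Mafa, Kcnn4 at 0.142, Zar1 at 0.189 and Cpxm2 at 0.200, shared its high value on mutant replicate 2. All these genes were picked for their closeness, so like differences and like values on that array follow from the choice. With that array left out, the feature nearest to Mafa was Pax6, at a distance of 0.078 over 7 arrays.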

How the data were processed

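RNA of 8 pools, 4 wild-type and 4 Sox9 mutant, was hybridised to one-colour Agilent arrays. Per the file headers, the deposited scanner files hold output of Agilent Feature Extraction 9.5.3.1, and the processed signal is an intensity from which the software had subtracted background, with probe positions on mm8. For 40928 probes the deposited series table gives an intensity too, in linear units. It followed the raw median spot signal (Pearson r across probes of at least 0.9996 on 7 arrays and 0.9817 on mutant replicate 2), with median log2 values of 8.30 to 8.32 and 8.47, its centring is unknown, and it served only as an alternative, without the Isl1 probe, which was not analysed there. The submitters' processing notes name limma and give no steps.

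Control and outlier spots were left out, log2 signals of repeated spots were averaged, and each array's 75th percentile was taken away. Probes well above background on at least 4 of 8 arrays were kept (29462 of 41174), and the brightest probe over all arrays stood for a gene. Genes were named through a RefSeq table of GRCm38.p6, used for names only: 24496 probes by accession, 6234 by symbol, 2386 by synonym and 8058 not at all. The limma 3.58.1 model (lmFit and eBayes, two-sided, genotype as the only term) was fitted to all features in R 4.3.3, with the data.table package (version 1.17.8) for reading, with Benjamini-Hochberg adjusted p-values and a threshold of 0.05. Differences within arrays had exact permutation tests. Figures were drawn with matplotlib 3.10.9. The scripts were tested on simulated data. The number of arrays limits the precision, and p-values measure the spread between pools.

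Members and gene lists were chosen with earlier results of these data known. Text names the members, Sox9, a fixed set of key islet genes, up to 4 called genes of each list by adjusted p (or the 2 of smallest p), and the 3 genes nearest in pattern to each member; Slc30a8, G6pc2, Ucn3, Isl2 and Pax2 were named after their values were seen. Lists counted without mutant replicate 2, the comparison with Neurog3, the neighbours without that array and the brightness check were chosen after seeing the data. Alternatives covered scaling, background correction, the dim-probe filter, the choice of probe, outlier spots, array weights, the replicate block, the series table and each array left out. Samples with the same replicate number did not deviate together, and the labels tie the numbers to no litter. Some genes of the lists are not reported here by name.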

Additional observations from a re-analysis of the deposited data

Results flagged for a closer look

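Within each group of 4 arrays, the gap of the farthest array to its nearest neighbour was set against the whole range of the group, and that share was compared with Dixon's critical value. Chance marks about 1 in 20 such groups, and 7 of the 22 groups looked at were marked, all through mutant replicate 2 among the mutant arrays. Pax6 at its brightest probe was -1.85 there, against -1.04 to -0.89 in the other mutant arrays, and the dim Pax6 probe was -3.54 against -8.57 to -8.09. Mafa was -2.23 against -5.76 to -5.54. The differences within the array moved with them: Pax6 minus Isl1 was -1.64 against -1.10 to -1.07, Pax6 minus Mafa was 0.38 against 4.55 to 4.71, and Isl1 minus Mafa was 2.02 against 5.62 to 5.81. Mafa minus the mean of the endocrine secretory genes was -2.20 against -5.78 to -5.25. The Isl1 level and the 10-spot Pax6 probe were not marked in either genotype. The 7 groups share arrays and genes, so they are not independent of each other.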

How the results depend on the processing

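Pax6 and Isl1 were lower in the mutant under every alternative run (Isl1 has no series table value), and their call depended on some. Median scaling gave -1.67 for Pax6 (adjusted p of 0.242, limma) and -1.28 for Isl1 (0.311), with 45 features called and a median of -0.40 over all features. Quantile normalization gave Pax6 -1.60 (0.143), and normexp background with quantile normalization gave -1.36 (0.0858) and, for its 10-spot probe, -1.05 (0.0784). Without the dim-probe filter 397 features were called (median of all features 0.16), with array weights 4684 and with the deposited series values 2182, against 1072. Array weights gave Mafa -1.08 (0.00601). With the replicate block Pax6 was -1.27 (0.0782), Isl1 -0.88 (0.0516) and 145 features were called. Same-numbered pools had correlations of deviations from -0.02 to 0.13, and 1 of 4 mutant arrays matched its own number best, so the numbers were not taken as pairs. With 1 array left out, 357 to 3362 features were called, Pax6 was -1.37 to -1.05, Isl1 -0.94 to -0.80 and Mafa -1.07 to 0.10, turning positive without mutant replicate 1 (0.03), 3 (0.04) or 4 (0.10). Within arrays, under normexp, Pax6 minus Mafa was -1.02, Isl1 minus Mafa -0.49, Pax6 minus the secretory mean -0.80 and Isl1 minus it -0.26 (exact permutation, adjusted p of 0.0429 each), and the series table gave -0.81 for Pax6 minus Mafa (0.0286). With 1 array left out, these differences ranged from -0.45 to -0.25 for Pax6 minus Isl1, -1.42 to 0.02 for Pax6 minus Mafa, -0.99 to 0.27 for Isl1 minus Mafa, -0.86 to -0.49 for Pax6, -0.42 to -0.24 for Isl1 and -0.51 to 0.69 for Mafa minus the secretory mean. The cause of these changes was not tested. Mafa lay near the dim end of the array, and its level rests on 1 spot per array. The normexp correction adds an offset of 50 scanner units, which is large beside the Mafa signals outside mutant replicate 2.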

Other observations

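With mutant replicate 2 left out, the genes nearest in pattern over 7 arrays changed for Pax6 and in part for Isl1. Nearest to Pax6 were then Hepacam2 at a root mean square log2 distance of 0.037, Vdr, the vitamin D receptor, at 0.039 and Slc35d3 at 0.045. Nearest to Isl1 were Gpd1, a glycerol phosphate dehydrogenase, at 0.059, Fbxl16 at 0.070 and again Abcc8 at 0.079. After Pax6, those nearest to Mafa were Slc35d3 at 0.095 and Neurod1, a basic helix-loop-helix factor of islet cells, at 0.096. Neurod1 differed between genotypes by -1.60 over all 8 arrays (adjusted p of 0.0751, limma) and by -1.13 over those 7 (adjusted p of 0.000619, limma). Nkx6-1, a factor of progenitors and beta cells, differed by -0.58 (adjusted p of 0.141, limma).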
